A study of Mus musculus with 9 samples.

Results

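Transcripts of 9 genes of the Notch pathway were followed in sorted basal cells of mouse footpad epidermis. The genes were the receptors Notch1, Notch2 and Notch3, the ligands Jag1, Jag2 and Dll1, the DNA-binding partner Rbpj and the target genes Hes1 and Hey1. They were taken by symbol, with earlier results of these data known, and all 9 were found among the 22399 genes of the deposited table. Of these members, Jag2 was lower in mice on a high-fat diet and Hes1 was higher in aged mice, while no difference passed the test for Notch1, Notch2, Notch3, Jag1, Dll1 or Rbpj.

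Notch receptors are membrane proteins that bind Jagged and Delta-like ligands on neighbouring cells. Binding leads to cleavage of the receptor by ADAM proteases and γ-secretase, and the released intracellular domain joins RBPJ and Mastermind coactivators on DNA to switch on target genes, among them the Hes and Hey repressors. In the epidermis the pathway is best known for promoting the exit of keratinocytes from the basal layer and the start of spinous differentiation.

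The cells came from wild-type C57BL/6 mice and had been sorted from trypsinized plantar skin as positive for CD49f (α6 integrin) and negative for CD34. The control mice were 5 months old and ate a normal diet, the HFD mice were 5 months old and ate a high-fat diet, and the aged mice were 24 months old. Each group had 3 RNA-seq libraries, and the study's question was how diet and age alter these basal cells. The labels give no diet for the aged mice, no length of feeding, no sex and no number of mice behind a library, so p-values measure the spread between these libraries, which may in part be technical. Age and diet cannot be told apart in the comparison of aged with HFD.

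Expression was deposited as FPKM, fragments per kilobase of gene and per M fragments, at an estimated 23.5 to 35.8 M reads per library. The defining basal keratins dominated: Krt5 stood at 11465 ± 1838 and Krt14 at 12136 ± 1784 FPKM in control (SD, n = 3), and the 10 basal markers summed to 24091 to 30876 FPKM in control, 27192 to 31907 in HFD and 23968 to 25069 in aged. Suprabasal transcripts were present too, with summed levels of 15 spinous and granular markers of 8148 to 10515 FPKM in control, 7282 to 10455 in HFD and 9038 to 12459 in aged. Vessel cells, another home of Notch signalling, left almost no trace: the 8 endothelial markers summed to at most 0.431 FPKM in any library, Pecam1 reached 0.203 and the pericyte gene Rgs5 0.00677. CD34, used to remove hair follicle cells, reached 0.0671 FPKM.

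Jag2 was the most abundant of the members, with a mean of 88.3 FPKM over all 9 libraries, above 95.8% of the 10367 genes tested. Notch1 followed at 44.1 FPKM, and its range did not overlap that of Jag2. Hes1 at 42.0 and Jag1 at 29.5 FPKM came next; Notch1 exceeded Hes1 in 6 of 9 libraries and Hes1 exceeded Jag1 in 6 of 9, so these neighbours were not separated beyond their spread. Dll1 at 18.2 FPKM lay below Jag1 in every library and above Notch3. Notch3 at 9.60 and Notch2 at 7.19 FPKM had overlapping ranges, although Notch3 was higher in 9 of 9 libraries. Rbpj at 2.27 FPKM, with 11.0% of tested genes below it, and Hey1 at 0.361 FPKM closed the order. FPKM divides by gene length, so these levels can be compared roughly between genes, with GC content, shared sequence and exon overlaps not corrected for. The order was the same when the longest transcript replaced the merged exons. Only the size of some gaps moved, with Rbpj at 5.27 on that scale. In these cells the ligand gene Jag2 thus carried more transcript per length than any of the receptor genes.

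**Figure D1:**
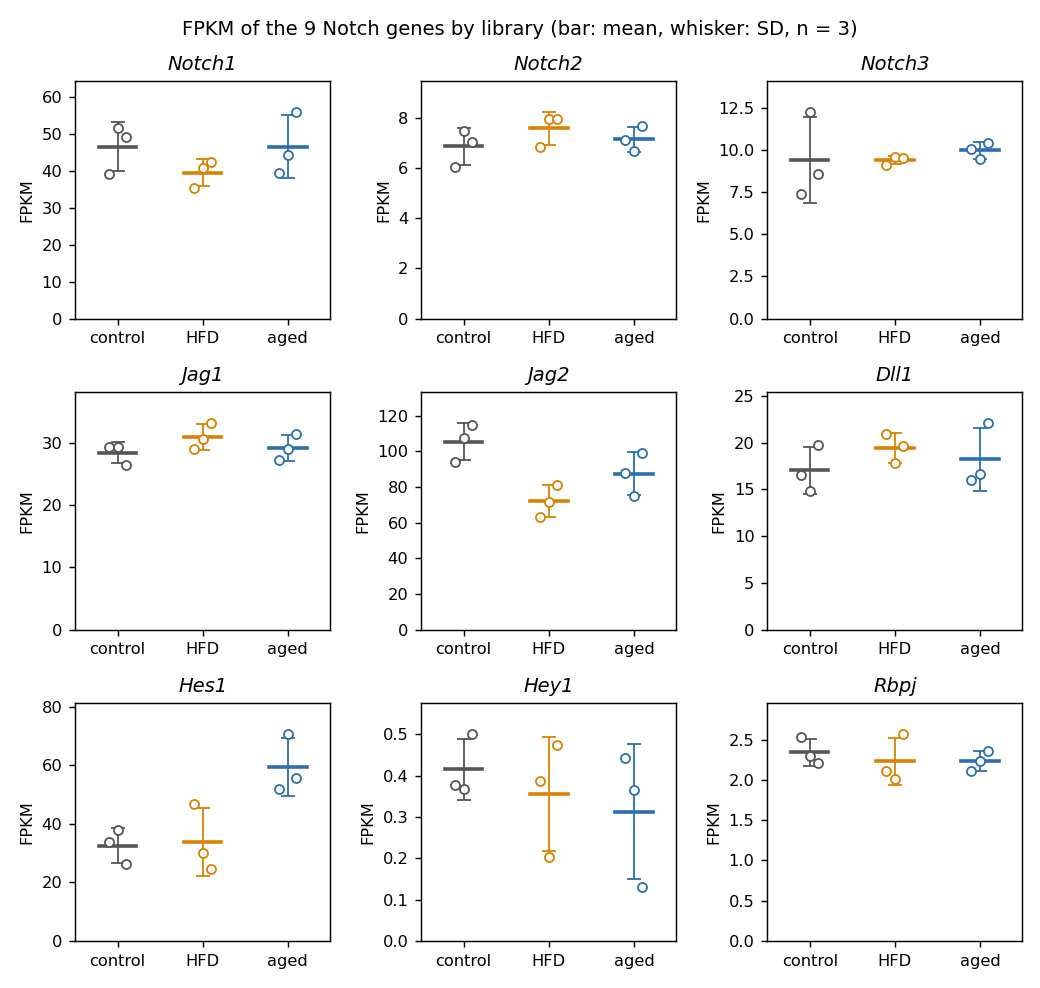
FPKM of each of the 9 Notch genes (vertical axes from 0, a scale of its own per gene) in the 3 control, 3 HFD and 3 aged libraries (points), with the mean (bar) and SD (whisker). The 3 HFD points of Jag2 lie at 63.4 to 81.3 FPKM, below every control point, and the 3 aged points of Hes1 lie at 52.0 to 70.6 FPKM, above every control and HFD point.

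Differences between groups were tested with limma on log2(FPKM + 1), in the 10367 genes that averaged 1 FPKM or more, and called at an adjusted p under 0.05; 8 of the 9 members were tested, since Hey1 lay under that minimum. In HFD against control 1 of the 8 was called (Jag2, lower), where 17.0% of all tested genes were called. In aged against control 1 of 8 was called (Hes1, higher) beside 7.76% of all genes, and in aged against HFD 1 of 8 (Hes1, higher) beside 7.99%. The number of called members was therefore not set apart from the background, and what follows describes which members moved. The same members were those whose groups did not overlap, 1 of 8 in each comparison, where 40.4% of all tested genes did not overlap in HFD against control, 27.8% in aged against control and 29.8% in aged against HFD. By the F test for any difference among the 3 groups, Jag2 (adjusted p = 0.0219) and Hes1 (adjusted p = 0.0199) were called, beside 20.4% of all genes. The median log2 difference of the 8 members was 0.02, 0.05 and 0.04 in the 3 comparisons in the order given, and that of all tested genes was 0.01, -0.01 and -0.00.

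**Figure D2:**
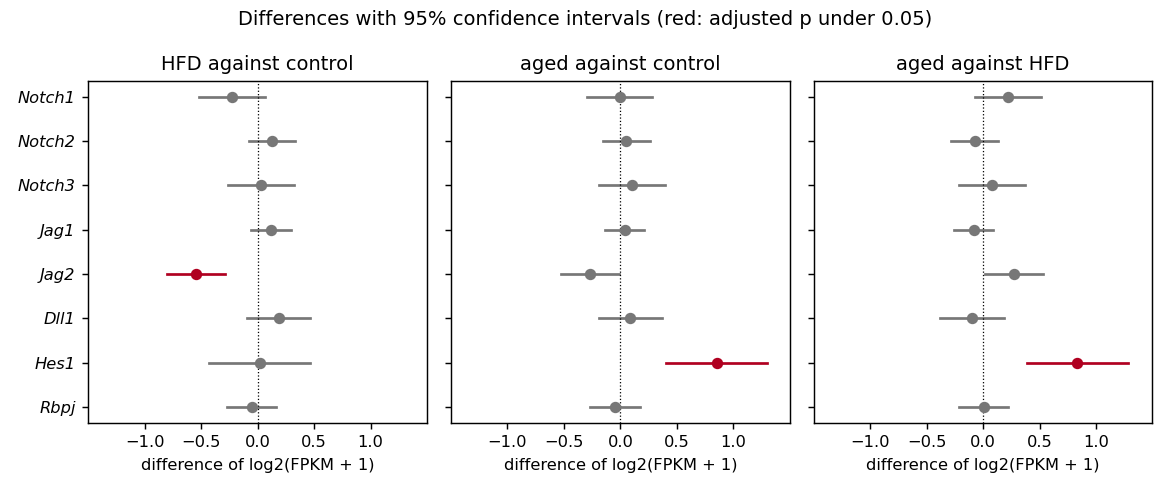
Difference of log2(FPKM + 1) between groups (horizontal axis) for the 8 tested members, with 95% confidence intervals from limma; red marks an adjusted p under 0.05. Jag2 stands apart on the lower side in HFD against control and Hes1 on the higher side in both comparisons of the aged mice.

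Among the receptors, no difference passed the test. Notch1 encodes the principal receptor of the epidermis, and it lies at chr2:26457903-26516663 (minus strand, GRCm38). Control replicates 1 to 3 held 39.0, 51.5 and 49.0 FPKM, the HFD libraries 35.4, 40.8 and 42.2, and the aged libraries 39.3, 44.2 and 55.8. HFD replicate 1 was the lowest and aged replicate 3 the highest, and the groups overlapped. The log2 difference of HFD from control was -0.23 ± 0.13 (SE), with a 95% confidence interval of -0.52 to 0.07 and an adjusted p of 0.255 in limma. In aged against control it was -0.01 (adjusted p = 0.981).

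Notch2 and Notch3 code for related receptors, and Notch3 is best known from the smooth muscle cells of arteries. Notch2 (chr3:98013527-98150361, plus strand) stood at 6.04, 7.47 and 7.05 FPKM in control, 6.82, 7.94 and 7.96 in HFD and 7.09, 6.66 and 7.66 in aged, a spread within which all groups overlapped. Notch3 (chr17:32120820-32166852, minus strand) stood at 7.41, 12.3 and 8.57 FPKM in control, 9.12, 9.60 and 9.50 in HFD and 10.1, 9.45 and 10.4 in aged, with control replicate 2 the highest of the 9 values. Its log2 difference was 0.03 (adjusted p = 0.910) for HFD and 0.10 (adjusted p = 0.661) for aged against control, and that of Notch2 was 0.13 (adjusted p = 0.365) and 0.05 (adjusted p = 0.756). Of the markers of mural cells, which surround vessels, 6 of 7 were under 1 FPKM in every library and 4 were listed at 0, so Notch3 was read here with those markers nearly absent; Cspg4 made up almost all of the mural sum, at 14.3 to 21.2 FPKM in control, 17.4 to 25.5 in HFD and 10.3 to 16.8 in aged. Notch4, the receptor of endothelial cells, was under 0.3 FPKM in every library.

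Notch1 made up most of the receptor transcripts. Its share of the summed FPKM of Notch1, Notch2 and Notch3 was 74.2% ± 1.77 in control, 69.9% ± 0.904 in HFD and 72.8% ± 3.01 in aged (SD, n = 3). Every HFD library, at 68.9% to 70.7%, lay below every control library, at 72.3% to 75.8%, while the aged libraries spanned both. The exact permutation test gave p = 0.1 for HFD against control, which is the smallest value 3 against 3 libraries allow, and p = 0.6 for aged against control (two-sided). Adjusted over the 18 exact tests of ratios and shares, no p-value was below 0.225. Neither Notch1 nor Notch2 nor Notch3 passed its own test, so no change of share or of level was established for the receptors.

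The ligands differed from the receptors in that Jag2 was called. Jagged ligands are displayed on the cell surface and activate Notch on the neighbour, and Jag2 is known in skin as a ligand of the basal layer. Jag2 (chr12:112907819-112929776, minus strand) was measured at 94.2, 107 and 115 FPKM in control, 63.4, 71.6 and 81.3 in HFD and 87.9, 75.3 and 99.3 in aged. All 3 HFD libraries fell below all 3 control libraries, and the aged libraries lay between, overlapping both. Jag2 was lower in HFD than in control by a log2 difference of -0.54 ± 0.12 (SE; 95% confidence interval -0.80 to -0.29), or 0.686 times the control level on that scale, with an adjusted p of 0.0118; 8.76% of all tested genes were called lower. In bulk RNA, fewer cells of a type and less RNA per cell cannot be told apart.

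Aged mice did not show a called change of Jag2. The difference from control was -0.27 with an interval of -0.53 to -0.01, an unadjusted p of 0.0407 and an adjusted p of 0.174 in limma. From HFD it was 0.27, with an interval of 0.02 to 0.53 and an adjusted p of 0.178. Control averaged 105 ± 10.4 FPKM, HFD 72.1 ± 8.96 and aged 87.5 ± 12.0 (SD, n = 3), with the aged mean between the other means and not separated by the test from either.

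Jag1, the other Jagged ligand, was not called. Its levels (chr2:137081456-137116644, minus strand) were 29.4, 29.4 and 26.5 FPKM in control, 29.1, 30.6 and 33.2 in HFD and 27.2, 29.0 and 31.4 in aged, a narrow range in which all groups overlapped. The log2 difference of HFD from control was 0.12 ± 0.08 (SE), and its interval of -0.05 to 0.29 leaves out a fall of the size seen for Jag2 (limma, adjusted p = 0.316). Dll1, a Delta-like ligand known in epidermis from clusters of basal cells, lies at chr17:15367354-15376872 (minus strand) and stood at 16.5, 14.8 and 19.8 FPKM in control, 20.9, 17.8 and 19.6 in HFD and 16.0, 16.6 and 22.1 in aged. Its groups overlapped as well, with log2 differences of 0.19 (adjusted p = 0.332) in HFD and 0.09 (adjusted p = 0.699) in aged against control.

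The balance of ligand transcripts was read from ratios within each library. Control replicates 1 to 3 had ratios of Jag2 to Jag1 of 3.20, 3.65 and 4.34, the HFD libraries 2.18, 2.33 and 2.45, and the aged libraries 3.22, 2.60 and 3.16. The HFD ratios were the 3 lowest of the 9. Of the summed ligand FPKM, Jag2 made up 69.8% ± 2.22 in control, 58.7% ± 2.48 in HFD and 64.8% ± 2.39 in aged (SD, n = 3). These shares did not overlap between any pair of groups, although the lowest control share, 67.2%, was close to the highest aged share, 67.0%. Both measures gave p = 0.1 for HFD against control and for aged against HFD in the exact permutation test, the smallest value this design allows; aged against control gave p = 0.2 for the ratio and p = 0.1 for the share. Adjusted by Benjamini-Hochberg over the 18 exact tests, no p-value was below 0.225, so no change of ratio or share was established. Summed over the ligands, control held 151 ± 10.5 FPKM, HFD 122 ± 10.6 and aged 135 ± 16.3.

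**Figure D3:**
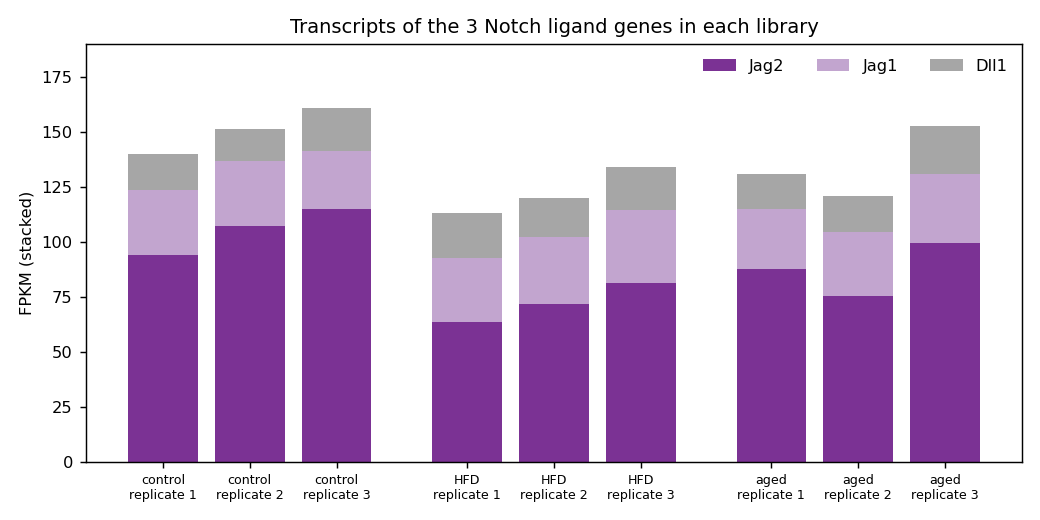
Stacked FPKM (vertical axis, from 0) of Jag2, Jag1 and Dll1 in each of the 9 libraries. The Jag2 segment of the 3 HFD libraries, at 63.4 to 81.3 FPKM, is shorter than in every control library, while the Jag1 segment stays between 26.5 and 33.2 FPKM in every library.

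Jag2 and Jag1 differ in base composition, which bears on these values because differences in HFD moved with the GC content of transcripts across all genes. The second exon of each gene, which is coding throughout, shows the contrast. The first 300 bases of each exon are given 5′ to 3′ on the coding strand, from the GENCODE M21 transcripts on GRCm38, with each CG dinucleotide in capitals. For Jag2 this is chr12:112928933-112929232 (minus strand, 74.0% GC, 49 CG) and for Jag1 chr2:137115410-137115709 (minus strand, 58.7% GC, 22 CG).
Jag2 exon 2: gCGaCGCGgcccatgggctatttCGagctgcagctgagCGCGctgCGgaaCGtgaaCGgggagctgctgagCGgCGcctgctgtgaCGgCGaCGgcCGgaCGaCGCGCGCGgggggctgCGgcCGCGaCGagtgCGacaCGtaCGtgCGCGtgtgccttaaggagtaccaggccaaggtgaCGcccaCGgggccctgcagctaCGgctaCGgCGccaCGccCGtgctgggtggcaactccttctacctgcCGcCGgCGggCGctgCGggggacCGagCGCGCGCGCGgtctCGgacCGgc
Jag1 exon 2: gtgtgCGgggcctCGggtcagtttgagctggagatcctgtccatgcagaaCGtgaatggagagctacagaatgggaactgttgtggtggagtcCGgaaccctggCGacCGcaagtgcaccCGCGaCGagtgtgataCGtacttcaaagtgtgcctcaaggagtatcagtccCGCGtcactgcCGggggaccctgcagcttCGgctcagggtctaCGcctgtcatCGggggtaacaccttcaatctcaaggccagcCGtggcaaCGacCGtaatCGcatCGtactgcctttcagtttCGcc
Over the whole coding sequence Jag2 held 62.4% GC and 223 CG dinucleotides in 3741 bases, and Jag1 52.9% and 127 in 3654 bases.

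The longest Jag2 transcript had 61.9% GC, more than 98.5% of the tested genes, and that of Jag1 48.8%. Among all tested genes cut into 8 bins by GC content, the median log2 difference of HFD from control ran from 0.15 in the lowest bin to -0.21 in the highest, where 26.0% of genes were called lower. With this GC trend subtracted from each library, Jag2 was still called lower in HFD, at a log2 difference of -0.30 instead of -0.54 (limma, adjusted p = 0.0377). The F test for Jag2 was lost with that correction (adjusted p = 0.0597), as it was without control replicate 2 (0.0647), control replicate 3 (0.0660), HFD replicate 1 (0.0657) or HFD replicate 2 (0.0586). In all it was lost under 6 of 20 alternative settings, at an adjusted p of up to 0.0666. The call of HFD against control held without any single library, with adjusted p between 0.00672 and 0.0482 and log2 differences from -0.63 to -0.46. In aged against control the medians of the GC bins ran from 0.07 in the lowest to -0.13 in the highest. The uncalled Jag2 difference in that comparison, -0.27 in the main fit, ranged from -0.37 to -0.15 over all alternative settings. The longest transcript of Notch3 had 59.6% GC and that of Notch1 57.1%. With the GC trend subtracted, the log2 difference of HFD from control moved from 0.03 to 0.22 for Notch3 and from -0.23 to -0.09 for Notch1, and neither was called with or without that step.

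**Figure D4:**
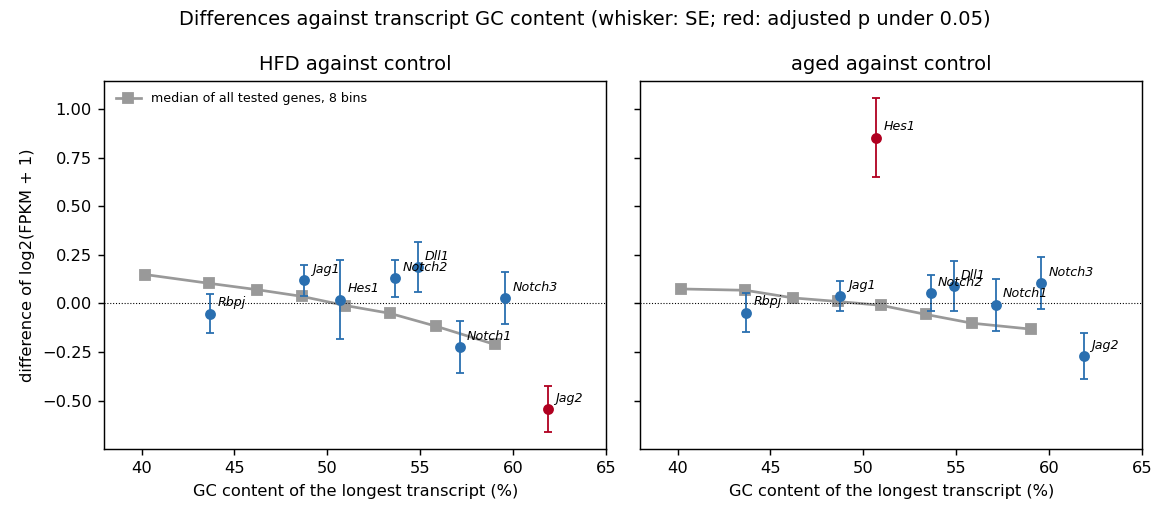
Difference of log2(FPKM + 1) in HFD (left) and aged (right) against control for the 8 tested members, plotted over the GC content of the longest transcript in percent; whiskers are SE, red marks an adjusted p under 0.05, and grey squares are medians of all tested genes in 8 bins. In HFD the grey line falls from 0.15 to -0.21 and Jag2 lies below its end at -0.54; in aged it falls from 0.07 to -0.13 and Hes1 stands above it at 0.85.

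Markers of other cells also differed between the groups. The summed level of 7 fibroblast markers was 50.4 to 58.1 FPKM in control, 34.4 to 39.9 in HFD and 29.2 to 36.8 in aged, with 5 of the 7 under 1 FPKM in every library, among them Col1a1, Col1a2 and Pdgfra, and Lum listed at 0; Thy1 and Dcn made up the sum. The 8 sweat gland markers summed to 9.74 to 10.8 FPKM in control, 20.5 to 28.3 in HFD and 5.52 to 10.3 in aged, with 5 under 1 FPKM everywhere and Foxa1 listed at 0. Only 2 of these 8 averaged 1 FPKM or more, so this sum stands for few genes and is no measure of sweat gland cells. The 8 Langerhans and myeloid markers summed to 30.0 to 40.4 FPKM in control, 44.2 to 53.9 in HFD and 44.0 to 48.6 in aged. Epcam, a cell adhesion gene that epithelial cells express too and that is named after its values were seen, made up most of that sum, with 24.2 to 29.9 FPKM in control, 39.1 to 45.3 in HFD and 39.1 to 40.7 in aged. It was the 1 marker of 3 tested that was called, higher in HFD (limma, adjusted p = 0.00166) and in aged (adjusted p = 0.00459) against control, while 4 of the 8, Cd207 and Ptprc among them, were under 1 FPKM in every library. The part of any of these cells in the lower Jag2 or the higher Hes1 level was not tested.

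Among the targets, Hes1 was higher in aged cells. Hes1 encodes a repressor of the bHLH family and is the target most often used as a readout of Notch activity, although other signals are known to induce it as well. It lies at chr16:30064384-30067796 (plus strand). Its level was 33.8, 37.8 and 26.1 FPKM in control, 46.8, 30.1 and 24.6 in HFD and 52.0, 70.6 and 55.8 in aged. Every aged library lay above every control and every HFD library, which held for 4.18% of all tested genes; HFD replicate 1 came closest.

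Hes1 rose in aged against control by a log2 difference of 0.85 ± 0.20 (SE; 95% confidence interval 0.40 to 1.30), or 1.81-fold, with an adjusted p of 0.0302 in limma, where 4.01% of all genes were called higher. Against HFD it rose by 0.83 ± 0.20 (interval 0.39 to 1.28), or 1.78-fold, with an adjusted p of 0.0314, where 3.54% were called higher. In HFD against control the difference was 0.02 ± 0.20 (interval -0.43 to 0.47, adjusted p = 0.958). Control averaged 32.6 ± 5.94 FPKM, HFD 33.8 ± 11.6 and aged 59.5 ± 9.81 (SD, n = 3), so the HFD libraries were the most scattered.

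These calls lay close to the threshold. Aged against control was no longer called without control replicate 1 (adjusted p = 0.0547), control replicate 2 (0.0505), control replicate 3 (0.108), aged replicate 1 (0.0592) or aged replicate 2 (0.0992), with limma's robust setting (0.0501) or with no filter on low genes (0.0925), while the log2 difference stayed between 0.71 and 0.97. Aged against HFD was no longer called without HFD replicate 2 (0.0970), HFD replicate 3 (0.108), aged replicate 1 (0.0529), aged replicate 2 (0.0995) or aged replicate 3 (0.0518), with the robust setting (0.0534) or with no filter (0.102), at differences of 0.64 to 1.09. The F test for Hes1 was lost without aged replicate 2 (0.0710) and with no filter (0.0762).

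Immediate early genes, known for their quick response to many stimuli, moved in the same comparisons as Hes1. Of 20 such genes, a list chosen after results of these data were known, 13 rose and 0 fell in aged against control with a median log2 difference of 0.89, and 18 rose against HFD with a median of 1.10, while 3 rose and 2 fell in HFD against control. Of all tested genes, 4.01% were called higher in aged against control and 3.54% in aged against HFD, and 8.26% were called higher and 8.76% lower in HFD against control. Their summed level was 1144 to 1478 FPKM in control, 1106 to 1509 in HFD and 2413 to 3055 in aged. The 9 hair follicle and sebaceous markers also summed higher in aged, at 223 to 251 FPKM against 100.2 to 171 in control and 108 to 137 in HFD, with Lgr5, Krt75 and Cd34 under 1 FPKM in every library. Of the 14 spinous and granular markers tested, 1 rose in aged against control (Krt1, a keratin of the first suprabasal layer, adjusted p = 0.0198) and 0 fell. Called or not, 12 of these 14 had a positive difference, with a median of 0.21 on the log2 scale. Of the 10 basal markers 0 had a positive difference in that comparison, with a median of -0.14, and 0 were called. In aged against HFD 11 of the 14 differences were positive, and 1 marker was called, lower. The part of any of these in the higher Hes1 level was not tested.

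Hey1, a repressor related to Hes1, was near the limit of detection. It lies at chr3:8663359-8667256 (minus strand) and stood at 0.377, 0.368 and 0.50 FPKM in control, 0.388, 0.203 and 0.474 in HFD and 0.444, 0.366 and 0.130 in aged, which corresponds to an estimated 13 to 51 reads per library. The groups overlapped throughout. A rise of Hey1 like that of Hes1 was not seen at this depth, and the main fit made no test because the gene lay under the minimum.

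Nrarp and Hes6 were the other target genes above the minimum, and neither was called. Nrarp, an ankyrin repeat protein that is induced by Notch and dampens it, measured 33.2, 34.9 and 32.1 FPKM in control, 32.9, 33.3 and 27.0 in HFD and 38.1, 35.8 and 44.5 in aged. Every aged library lay above every control and HFD library, as for Hes1, but by less: the log2 difference was 0.23 (limma, adjusted p = 0.174) against control and 0.33 (adjusted p = 0.0617) against HFD. An antisense gene covers 79.4% of its exons, and since it is not stated whether counting used the strand, the Nrarp values are uncertain. The ratio of Hes1 to Nrarp averaged 0.971 in control, 1.08 in HFD and 1.53 in aged, and the exact permutation test gave p = 0.1 for aged against control, the smallest possible, and p = 0.3 for aged against HFD. Hes6 differed by 0.05 on the log2 scale in both HFD and aged against control, and Hes2, Hes5, Hey2 and Heyl were all under 0.3 FPKM in every library.

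Rbpj, the DNA-binding protein through which Notch receptors act on target genes, was low in every library. It lies at chr5:53466152-53657362 (plus strand) and stood at 2.53, 2.29 and 2.21 FPKM in control, 2.11, 2.01 and 2.57 in HFD and 2.11, 2.23 and 2.35 in aged. All groups overlapped, and the log2 difference from control was -0.05 in both HFD (adjusted p = 0.748) and aged (adjusted p = 0.802). Of the longest Rbpj transcript, 23.8% lies in stretches of 50 bases shared with other genes, so part of its reads may have been counted elsewhere or dropped. For Notch2 that share was 3.86%, and for Notch1, Jag1, Jag2, Dll1, Hes1 and Hey1 it was 0. Exons of Dll1 overlap a gene on the opposite strand over 20.6% of their length, and those of Notch1 overlap such genes over 7.50% and 2.91%.

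Over all uncalled members the intervals bound what these libraries could have missed. For the 7 uncalled members in HFD against control, log2 differences lay between -0.23 and 0.19 and the outer limits of the intervals between -0.52 and 0.47. For the 7 in aged against control the differences lay between -0.27 and 0.10, within limits of -0.53 and 0.40. A member could thus have differed by as much as these limits without being called.

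The rest of the pathway was read from a list of 60 further genes sorted by role, of which 46 were tested. In HFD against control 2 rose and 5 fell, beside 8.26% and 8.76% of all genes, with a median log2 difference of -0.02 over the 46. In aged against control 0 rose and 1 fell, beside 4.01% and 3.74%; 8 of the 46 had an unadjusted p under 0.05. In aged against HFD 2 rose and 1 fell, beside 3.54% and 4.45%. These counts are near or below the shares of all genes. By the F test 8 of 46 were called, beside 20.4% of all genes. Of the 14 genes under the minimum 13 stayed under 0.3 FPKM in every library, among them Notch4, Dll3, Dll4, Dlk1, Mfng and Dtx1. The exception was Cyfip2, with 0.474 to 1.07 FPKM in control, 0.474 to 0.705 in HFD and 1.23 to 1.88 in aged. Its aged libraries all lay above every control and HFD library, as held for 4.18% of all tested genes, but it had no test in the main fit.

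Among these further genes, the 1 ligand tested and the 3 tested enzymes that prepare ligands had no call. Dlk2, a non-canonical ligand, had log2 differences of -0.36 (adjusted p = 0.123) in HFD and -0.46 (adjusted p = 0.0838) in aged against control. Mib2 and Neurl1b, ubiquitin ligases that act on ligands before they can signal, had -0.38 (adjusted p = 0.106) and -0.02 (adjusted p = 0.928) in HFD. Among the glycosyltransferases that modify receptors, Rfng, the radical fringe enzyme, fell in HFD by 0.46 on the log2 scale (adjusted p = 0.0178) and in aged by 0.43 (adjusted p = 0.0390), the 1 listed gene called in both. Its levels were 19.9, 21.4 and 18.6 FPKM in control, 13.9, 15.9 and 12.9 in HFD and 12.3, 14.9 and 16.8 in aged, with no overlap between control and either group. With the GC trend subtracted the differences were -0.28 (adjusted p = 0.0907) and -0.34 (adjusted p = 0.0640). The HFD call was also lost without control replicate 2, HFD replicate 1 or HFD replicate 3 (adjusted p = 0.0574 to 0.0701) and with no filter (0.0513), and the aged call without any control library, HFD replicate 1, aged replicate 1 or aged replicate 2 (0.0531 to 0.127), with no filter (0.0882) or with only the 6 libraries compared (0.0583). In all, 6 of 21 alternative settings lost the HFD call and 10 of 21 the aged call.

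Furin, the protease that cuts the Notch precursor on its way to the surface, fell in HFD by 0.40 on the log2 scale (adjusted p = 0.0111). It measured 19.9, 18.2 and 19.7 FPKM in control, 13.4, 14.9 and 14.8 in HFD and 16.5, 15.7 and 19.3 in aged. All 3 HFD libraries were below the other 6, and the call held without any single library. None of the 8 other tested genes for receptor cleavage, which include the ADAM proteases and the subunits of γ-secretase, was called in any comparison.

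In the nuclear complex, Maml3, a Mastermind coactivator, fell in HFD by 0.44 on the log2 scale (adjusted p = 0.0264), and Snw1, which binds RBPJ and also works in splicing, rose by 0.37 (adjusted p = 0.0164). Maml3 measured 6.89, 5.70 and 5.53 FPKM in control against 3.77, 3.85 and 4.97 in HFD, and Snw1 17.1, 15.6 and 16.6 against 22.3, 20.4 and 21.8; neither pair of groups overlapped. Both calls were lost with the GC trend subtracted, at -0.41 (adjusted p = 0.0501) and 0.24 (adjusted p = 0.0577). Maml3 was also lost without control replicate 1, control replicate 2, HFD replicate 1 or HFD replicate 2 (0.0601 to 0.0922) and with no filter (0.0690), and Snw1 without control replicate 2 or HFD replicate 1 (0.0640 and 0.0576). In all, 7 of 21 alternative settings lost the Maml3 call and 4 of 21 the Snw1 call, the latter at an adjusted p of up to 0.0747. Exons of Snw1 overlap Slirp on the opposite strand over 44.2% of their length, so its values are uncertain. Of the corepressors, Hdac1, a histone deacetylase, was lower in aged than in HFD by a log2 difference of -0.36 (adjusted p = 0.0208), a call lost without any HFD library, aged replicate 1 or aged replicate 3 (0.0507 to 0.0779).

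Of the genes that turn over or restrain the receptor, 3 of 8 tested were called in HFD against control, where 17.0% of all tested genes were called. Dtx4, a Deltex ubiquitin ligase, fell in HFD by 0.45 on the log2 scale (adjusted p = 0.0129) and was higher in aged than in HFD by 0.59 (adjusted p = 0.00590). Its levels were 2.20, 2.32 and 2.41 FPKM in control, 1.62, 1.30 and 1.34 in HFD and 2.90, 2.46 and 2.54 in aged, so the 3 groups did not overlap; only the first call was lost without a library, HFD replicate 2 (adjusted p = 0.0508). Numbl, related to the Notch inhibitor Numb, was lowest in HFD too, with 2.57, 3.34 and 3.18 FPKM in control, 1.86, 1.96 and 1.76 in HFD and 2.49, 3.09 and 3.65 in aged. It fell in HFD by 0.49 (adjusted p = 0.020) and was higher in aged than in HFD by 0.50 (adjusted p = 0.0286). Its first call was lost without control replicate 2, control replicate 3, HFD replicate 1 or HFD replicate 3 (0.0568 to 0.0759), and its second without any HFD library, aged replicate 2 or aged replicate 3 (0.0694 to 0.0915) and with no filter (0.0689). Itch, a ubiquitin ligase that acts on Notch, rose in HFD by 0.31 (adjusted p = 0.0268), but not with the GC trend subtracted, at 0.18 (adjusted p = 0.166), nor with scaling to total FPKM (0.0712), nor without control replicate 2, control replicate 3, HFD replicate 2 or HFD replicate 3 (0.0610 to 0.0860). In all, 7 of 21 alternative settings lost this call, at an adjusted p of up to 0.192.

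**Figure D5:**
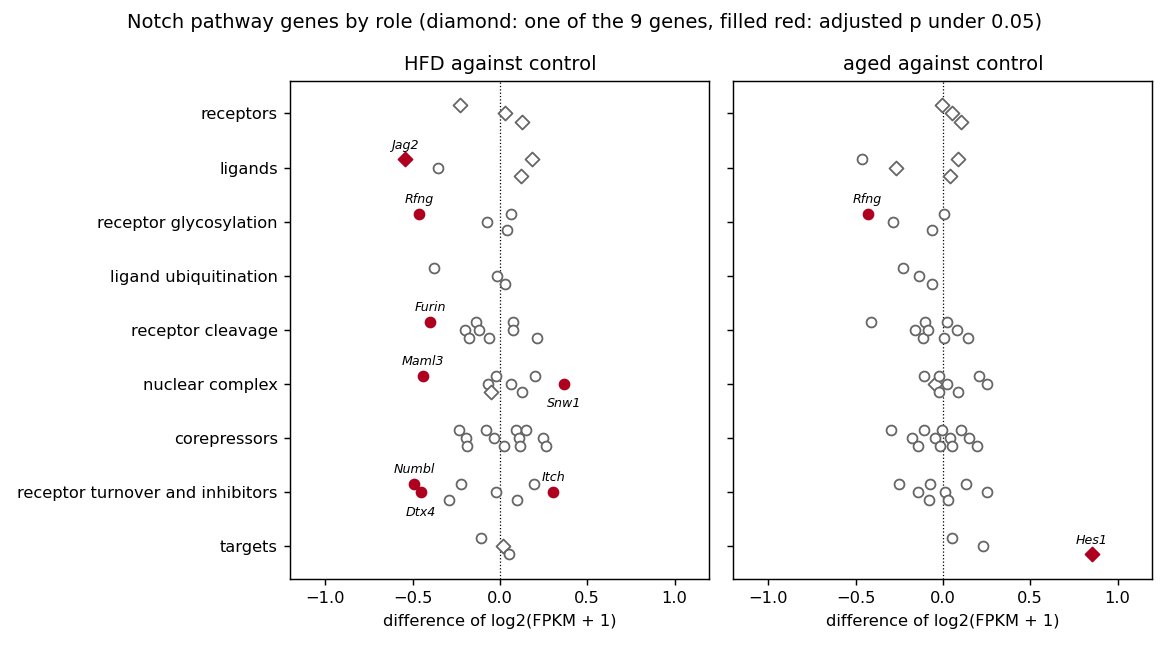
Difference of log2(FPKM + 1) (horizontal axis) in HFD (left) and aged (right) against control for every tested gene of the pathway, in rows by role; diamonds are members, circles the 46 other genes, and filled red symbols have an adjusted p under 0.05. In HFD the red symbols are Jag2, Rfng, Furin, Maml3, Numbl and Dtx4 on the lower side and Snw1 and Itch on the higher side, and in aged they are Rfng and Hes1.

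The genes whose levels ran most like those of the called members over the 9 libraries were found by Pearson's r of log2(FPKM + 1), given as a description because the libraries share the same groups. For Jag2 they were Egln2 (r = 0.989), an oxygen-sensing prolyl hydroxylase, Git1 (0.979), a GTPase-activating scaffold protein, and Gna11 (0.978), a G protein subunit. Their longest transcripts had 62.2%, 58.9% and 57.2% GC, all above 87.6% of tested genes. For Hes1 they were Edn2 (0.969), which encodes an endothelin peptide, Depp1 (0.952) and Gpatch1 (0.952), with 57.0%, 55.3% and 50.4% GC.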

How the data were processed

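RNA-seq was measured in 9 libraries (3 control, 3 HFD, 3 aged). The authors deposited 1 table of FPKM with a column per library. The mm10 genome, DESeq2 1.30.0, HTSeq 0.11.2, STAR 2.6.0c and cutadapt are named, per the submitters' processing notes; which tool made the FPKM, with which gene lengths, and whether counting used the strand of the stranded libraries is not given in the sources used here. Multiplied by the length of the merged exons, low FPKM came out as whole multiples of 1 value in each library (97.5% to 98.2% of those at 30 reads or fewer, within 0.02), which gave the estimated reads. The spread between libraries limits precision beyond such counting error.

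Differences were tested with limma 3.58.1 in R 4.3.3 (group means over all 9 libraries, eBayes with a trend, two-sided, 6 residual and 5.50 prior degrees of freedom) on log2(FPKM + 1) for the 10367 genes averaging 1 FPKM or more, with Benjamini-Hochberg adjustment over them; the pseudocount of 1 understates changes of low genes. Ratios and shares were compared by exact permutation tests (scipy 1.17.1), 18 in all; adjusted over them by Benjamini-Hochberg, none was below 0.225. GENCODE M21 (GRCm38) supplied gene models, GC content and exon sequences and held 22285 of the identifiers. The fit was tested on simulated data.

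The text names all 9 members, every other listed pathway gene called in a comparison, and some listed genes under the minimum. For a role with none called it names the 2 genes with the smallest F test p. It also names the 3 named genes most correlated with each called member, and a few marker genes. The members and lists were chosen with earlier results of these data known. The series also describes single-cell data, which were not used here.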

Additional observations from a re-analysis of the deposited data

How the results depend on the processing

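Settings tried were a pseudocount of 0.1, no filter, a minimum mean of 5 FPKM, other scalings, weights for libraries, the robust setting of limma, a block for the replicate number, a GC correction alone and together with that block, fits on only the 6 libraries compared, and fits without each library in turn. The lower Jag2 in HFD was called under all 21 of these (log2 difference -0.64 to -0.30). The 21 uncalled member results gave 0 calls over 438 repeats and 0 reversed; Rbpj had no value at the minimum of 5 FPKM. The 3 calls among members became 1 with no filter, 1 with the robust setting and 1 to 3 leaving out a library (1 without aged replicate 1 or 2): the cause was not tested, but leaving out a library also leaves fewer samples.

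Over all genes, HFD against control gave 1161 calls with the GC correction and 749 to 2109 leaving out a library. Aged against control gave 461 with only the 6 libraries compared and 300 to 1247 leaving out a library, with 1247 without aged replicate 3. Aged against HFD gave 541 with no filter and 379 to 782 leaving out a library, and the F test 1167 to 2474. Scaling to total FPKM moved the split of calls to 598 higher and 1165 lower in HFD against control (856 and 908 without it) and to 358 and 507 in aged against control (416 and 388). The cause of these shifts was not tested.

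Same-numbered libraries did not deviate together in every pair (9 correlations from -0.05 to 0.27, 5 of them over 0.1; in 10 of 18 matches of a library to another group, its own number correlated best), so the numbers were not taken as pairs. The libraries numbered 3 did correlate in every pair, at r = 0.27, 0.19 and 0.21, while those numbered 2 gave 0.07, -0.05 and 0.00. With the replicate block the comparisons gave more calls, 2061, 1137 and 987 against 1764, 804 and 828 without it. The F test gave 2500 against 2110, and the members kept 3 calls. The cause of these differences was not tested. Depth limits Hey1, which at an estimated 13 to 51 reads per library lay under the minimum mean of 1 FPKM and was left out of the main fit.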
